A study of Mus musculus with 12 samples.

Results

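The genes of the cytosolic ribosomal proteins were examined in plasma cells of a recall response, by genotype and by array. A gene belonged to the set when its symbol had the form of a large subunit (Rpl, Rplp) or small subunit (Rps, Rpsa) ribosomal protein gene, which held for 83 symbols. Of these, 2 were left out as RefSeq pseudogenes (Rps4l and Rpl6l), which left 81. A single-gene probe set was used for 58 of the 81, 37 of the large and 21 of the small subunit, out of 19938 genes in the series. The remaining 23 are not analysed here: 16 occur only in probe sets that name several genes (Rpl3, Rpl11, Rpl13a, Rpl15, Rpl17, Rpl31, Rpl32, Rpl35, Rpl35a, Rpl37, Rpl39, Rps16, Rps23, Rps24, Rps26 and Rps27), and a further 7 were not used here. A filter on low values, set at a mean of 5.49 on the log2 scale, kept 56 of the 58 (35 large, 21 small) and left out Rpl10l and Rpl39l.

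Splenocytes of NP-CGG-immune Zbtb32-/- or Zbtb32 +/+ donors carrying CD45.2 had been given to CD45.1 recipients, which were challenged with NP-CGG, a hapten on a carrier protein. After 7 days, donor-derived NP-binding plasma cells (B220- CD138+ Ly6g- CD11b-) were sorted from bone marrow, and each of the 12 samples, 6 Zbtb32-/- and 6 wild-type, was run on 1 Affymetrix mouse gene array. Zbtb32 encodes a zinc finger transcription factor that is a candidate regulator of antibody recall responses, and the comparison asks what its absence does to the transcripts of these cells. The donors' other cells carried the same genotype, the recipients' cells were left out of the gate by CD45.1, and every sample is labelled as plasma cells, although the series is titled as a study of memory B cells.

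The cytosolic ribosome has a large subunit, which forms peptide bonds, and a small subunit, which reads the messenger RNA. Nearly all ribosomal protein messengers of mammals begin with a C followed by a run of pyrimidines, the TOP element, through which the kinase mTORC1 and the binding protein Larp1 adjust their translation together. Plasma cells put much of their protein synthesis into antibody, and ribosomal protein messengers are among the most abundant in most cells.

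The labels could be checked only in part. The probe set of Zbtb32 read 6.56 ± 0.10 in Zbtb32-/- and 6.67 ± 0.16 in wild-type arrays (mean ± SD of log2 values, n = 6 each; limma adjusted p = 0.933), and the labels do not say which part of the gene is deleted, so this probe set does not check the genotype. The mean of 12 plasma cell markers lay between 10.75 and 11.47 in Zbtb32-/- arrays and between 10.66 and 11.46 in wild-type arrays. Markers of other cells were also present: the mean of 14 neutrophil genes ran from 8.75 to 11.98 in Zbtb32-/- and from 7.83 to 10.65 in wild-type arrays, although the gate left out Ly6g+ and CD11b+ cells. Array medians lay between 6.28 and 6.43. Nothing in the array values gives an absolute amount of RNA, and in such bulk samples fewer cells of a type and less RNA per cell cannot be told apart.

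No ribosomal protein gene differed between the genotypes after adjustment over all genes. The 56 genes tested lay close to 0, from -0.094 (Rpl32l) to 0.19 (Rpl30) in log2 units (Zbtb32-/- minus wild-type), with a median of 0.052. limma called 0 of 56 higher and 0 of 56 lower at an adjusted p under 0.05, as it called 0 of all 14993 genes tested in either direction (0%), and the smallest adjusted p of a member was 0.933. At an unadjusted p under 0.05, 1 member was higher (Rpl13) and 0 were lower, against 2.83% of all genes higher and 1.45% lower. In 0 of 56 members did all Zbtb32-/- arrays lie above all wild-type arrays (0.08% of all genes) and in 0 did they all lie below (0.0734% of all genes).

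The number of arrays limits the precision, but the intervals of these genes were narrow. The 95% interval of the difference stayed within 1.2-fold in either direction for 39 of 56 members (69.6%), 23 of the large and 16 of the small subunit, against 14.8% of all genes. It stayed within 1.5-fold for 56 of 56 members, against 73.4% of all genes. It stayed within 1.1-fold for 13 members, 5 of the large and 8 of the small subunit, among them Rps6, Rps7, Rps20 and Rpl23. The p-values set the genotype difference against the spread between samples that the series text calls biological replicates. In limma the spread of a gene is also drawn towards that of other genes.

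**Figure D1:**
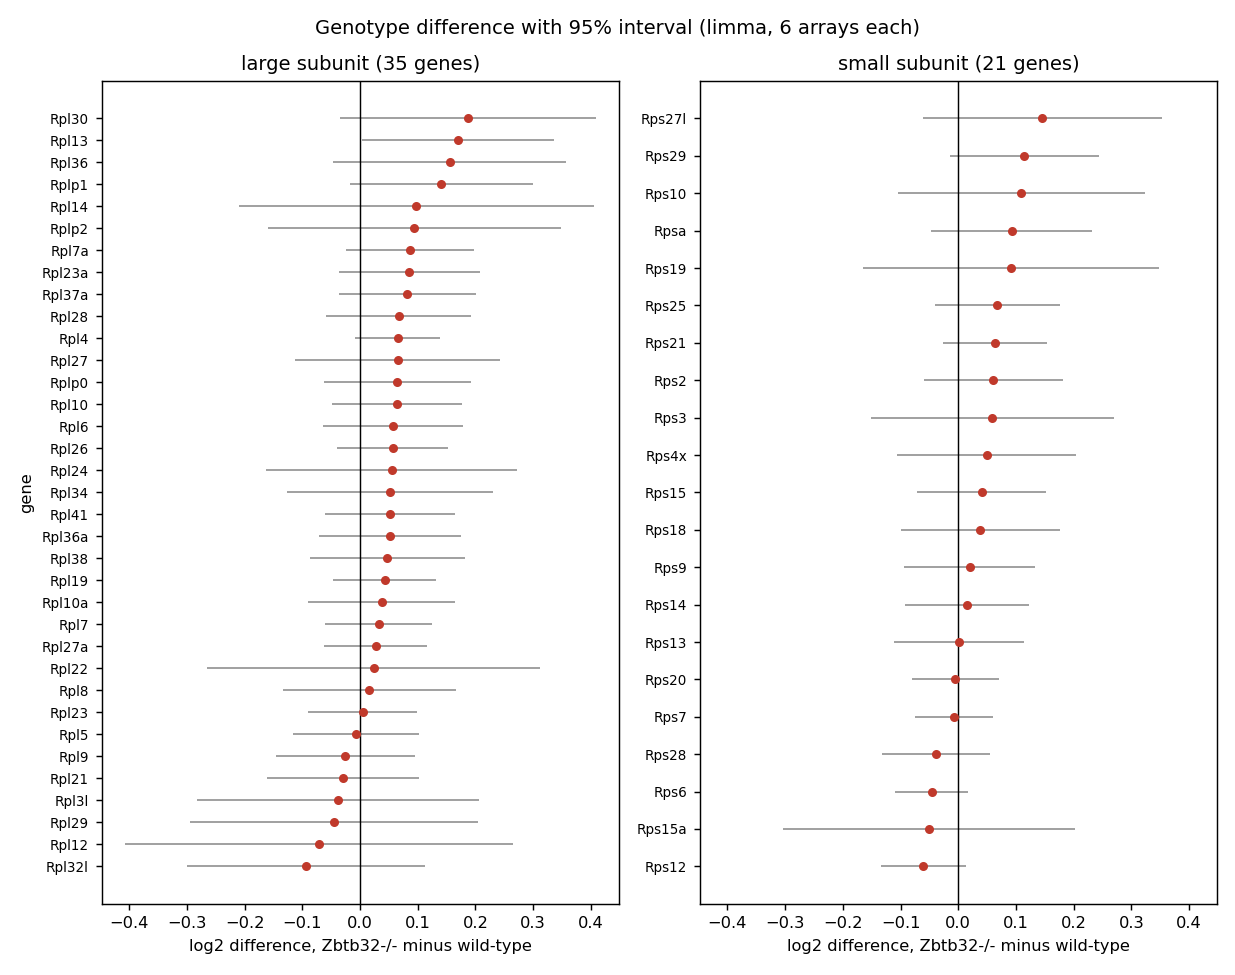
Genotype difference of 35 large subunit genes (left panel) and 21 small subunit genes (right panel): points are log2 differences (Zbtb32-/- minus wild-type), bars the 95% interval from limma with 6 arrays each. The points run from -0.094 to 0.19, and 55 of the 56 intervals include 0, that of Rpl13 being the exception.

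Both subunits had small positive medians. The difference was positive in 43 of 56 members, against 52.9% of all genes tested. It was positive in 28 of 35 large subunit genes, with a median of 0.052, and in 15 of 21 small subunit genes, with a median of 0.040. Their order depended on the setting: without wild-type replicate 4 the medians were 0.038 for the large and 0.012 for the small subunit, without wild-type replicate 3 they were 0.075 and 0.076, without Zbtb32-/- replicate 6 they were 0.084 and 0.077, and under renewed quantile normalization they were 0.010 and 0.019. The median of all genes was 0.012. Because ribosomal protein genes have high signals, with 50 of the 56 in the top decile of genes by mean log2 value, that decile is the closer background: 84.6% of its 1500 genes had a positive difference, with a median of 0.13. The signal of a probe set depends on its probes as well as on the messenger, so these deciles group genes of like signal and not of like abundance. Under renewed quantile normalization of the deposited values, the members' median was 0.019 with 35 of 56 positive, against a median of 0.013 for all genes. With each array centred on its median it was 0.077 with 46 of 56 positive, against 0.036 for all genes.

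Of the large subunit genes, Rpl13, which encodes one of the subunit's structural proteins, had the smallest p. Its log2 values in Zbtb32-/- arrays were 12.27 at the lowest, 12.40 at the median and 12.61 at the highest, against 11.95, 12.30 and 12.37 in wild-type arrays. The groups overlapped, and wild-type replicate 2 lay below all other arrays. The difference was 0.17 ± 0.077 (SE; limma unadjusted p = 0.046, adjusted p = 0.933), and 6 of 6 Zbtb32-/- values exceeded the wild-type average. Rpl13 has 9 single-gene probe sets, and the difference was positive in all 9, between 0.17 and 0.26. Without wild-type replicate 2, the difference of the probe set used was 0.11.

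Rpl30, which encodes another protein of the large subunit, had the largest difference. It read 6.40 at the lowest, 6.63 at the median and 6.84 at the highest in Zbtb32-/- arrays, against 6.24, 6.37 and 6.70 in wild-type arrays. Its difference of 0.19 ± 0.10 (SE) had an adjusted p of 0.933 in limma, and the highest wild-type array lay above 4 of the 6 Zbtb32-/- arrays. Rpl30 rests on 1 single-gene probe set of low signal, with a mean of 6.53. A further 10 probe sets name it together with other genes and were not used. Rpl4, whose protein lines the tunnel through which the new chain leaves, had tight groups with a small overlap: 12.997, 13.05 and 13.07 in Zbtb32-/- arrays, against 12.92, 12.97 and 13.02 in wild-type arrays (lowest, median and highest). Its difference was 0.066 ± 0.034 (SE; limma adjusted p = 0.933), with an interval from -0.0081 to 0.14.

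The acidic stalk proteins, which recruit the translation GTPases to the large subunit, all had positive differences, and none passed the test. Rplp1 read 12.98, 13.19 and 13.37 in Zbtb32-/- arrays, against 12.88, 13.06 and 13.30 in wild-type arrays (lowest, median and highest), a difference of 0.14 ± 0.074 (SE). Rplp2 read 9.33, 9.65 and 9.97 in Zbtb32-/- arrays, against 9.40, 9.56 and 9.70 in wild-type arrays, a difference of 0.094 ± 0.12, which was 0.032 without Zbtb32-/- replicate 3 and 0.16 without Zbtb32-/- replicate 6. Rplp0 differed by 0.065 ± 0.059. In Rplp1, Rplp2 and Rplp0 alike the ranges of the genotypes overlapped, and Zbtb32-/- replicate 3 was the highest array for Rplp2. Rpl12, whose protein sits at the base of the stalk, had a difference of -0.071 ± 0.16, and its Zbtb32-/- replicate 6 read 6.60 while the other 5 Zbtb32-/- arrays lay between 7.21 and 7.54. Without that array its difference was 0.063.

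Other large subunit genes lay nearer to 0. Rpl5, whose protein carries the 5S RNA with Rpl11 and can bind the p53 regulator Mdm2, differed by -0.0068 ± 0.051. Rpl10, whose protein joins the subunit late, in the cytoplasm, differed by 0.065 ± 0.052. Rpl14 had wide ranges in both genotypes, 10.50 to 11.22 in Zbtb32-/- and 10.58 to 11.29 in wild-type arrays, and differed by 0.098 ± 0.14. Leaving out single arrays moved this value between 0.034 (wild-type replicate 2 left out) and 0.20 (Zbtb32-/- replicate 6 left out), with 0.18 when wild-type replicate 3 was left out, and renewed quantile normalization gave 0.020. The genes with the 3 lowest p among negative large subunit members were Rpl32l, Rpl21 and Rpl12, and Rpl32l, a gene that RefSeq lists as protein coding, read 10.71, 10.92 and 11.05 in Zbtb32-/- arrays, against 10.79, 10.99 and 11.19 in wild-type arrays.

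The differences of small subunit genes ran from -0.061 (Rps12) to 0.15 (Rps27l). Rps29, whose protein lies in the head of the subunit, read 13.06, 13.24 and 13.34 in Zbtb32-/- arrays, against 12.89, 13.15 and 13.25 in wild-type arrays (lowest, median and highest), a difference of 0.11 ± 0.060 (SE; limma adjusted p = 0.933) that was 0.071 without wild-type replicate 2. Rps12 had the smallest p among members with a negative difference, with 13.55, 13.60 and 13.68 in Zbtb32-/- arrays, against 13.61, 13.65 and 13.76 in wild-type arrays. Its difference was -0.061 ± 0.034, and 5 of the 6 Zbtb32-/- arrays lay below the wild-type mean. The differences of its 14 single-gene probe sets ran from -0.089 to 0.017. The probe set at 0.017 correlated with the one used at -0.078. Rps6, the substrate of the S6 kinases, read 13.35, 13.39 and 13.43 in Zbtb32-/- arrays, against 13.40, 13.44 and 13.46 in wild-type arrays, a difference of -0.046 ± 0.029 with an interval from -0.11 to 0.018. Neither Rps12 nor Rps6 passed the test, and their groups overlapped.

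Among other small subunit genes, Rps28 differed by -0.039 ± 0.043 and Rps20 by -0.0048 ± 0.035. Rps19, whose human counterpart is the gene most often mutated in Diamond-Blackfan anaemia, differed by 0.092 ± 0.12, with 8.11, 8.28 and 8.57 in Zbtb32-/- arrays, against 8.04, 8.12 and 8.43 in wild-type arrays. Its difference was 0.038 without Zbtb32-/- replicate 3 and 0.059 without wild-type replicate 6. Rps4x, the X-linked gene of the pair known in humans on both sex chromosomes, differed by 0.049 ± 0.072. Its relative Rps4l, a transcribed pseudogene in RefSeq and so no member, read 7.45 ± 0.24 in Zbtb32-/- and 7.60 ± 0.25 in wild-type arrays (mean ± SD), a difference of -0.16 ± 0.15 (SE). Leaving out wild-type replicate 3 gave -0.075 and leaving out Zbtb32-/- replicate 5 gave -0.092. The value was -0.072 as the mean of its probe sets, and was -0.28 in replicates 1 to 3 and -0.032 in replicates 4 to 6.

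The paralogs with a tissue of their own read low or did not pass the test. Rpl3l, the form of Rpl3 known from heart and skeletal muscle, read 5.42, 5.67 and 6.22 in Zbtb32-/- arrays, against 5.62, 5.75 and 5.88 in wild-type arrays. Its difference was -0.038 ± 0.11 (SE; limma adjusted p = 0.977), and the value of 6.22 belonged to Zbtb32-/- replicate 6. Rpl10l, a testis form of Rpl10, averaged 5.34 ± 0.18 in Zbtb32-/- and 5.33 ± 0.46 in wild-type arrays, below the filter. Rpl39l, a testis form of Rpl39, averaged 5.35 ± 0.85 in Zbtb32-/- and 4.87 ± 0.34 in wild-type arrays, also below the filter, and its Zbtb32-/- replicate 3 read 6.91 while the other 5 Zbtb32-/- arrays lay between 4.52 and 5.37. Rps27l, a p53 target related to Rps27, read 11.69, 12.12 and 12.25 in Zbtb32-/- arrays, against 11.78, 11.90 and 12.19 in wild-type arrays, a difference of 0.15 ± 0.097 (SE; limma adjusted p = 0.933) that was 0.22 without Zbtb32-/- replicate 6 and 0.077 under renewed quantile normalization.

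The arrays of 1 genotype differed among themselves by more than the genotypes did. For each array, the median over the 56 members of the deviation from each gene's own mean was taken. It ran from -0.13 to 0.069 in Zbtb32-/- arrays (median 0.053) and from -0.065 to 0.10 in wild-type arrays (median -0.040), and averaged 0.022 ± 0.076 in Zbtb32-/- and -0.020 ± 0.062 in wild-type arrays (SD, n = 6 each). A single array of each genotype stood apart from its group in opposite directions, so the ranges overlapped. Zbtb32-/- replicate 6 lay at -0.13 while the other 5 Zbtb32-/- arrays lay between 0.018 and 0.069. Wild-type replicate 3 lay at 0.10 while the other 5 wild-type arrays lay between -0.065 and -0.030.

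Zbtb32-/- replicate 6 was the lowest of all 12 arrays for 27 members, 17 of the large and 10 of the small subunit, and only 3 of its 56 members lay above their own mean. Wild-type replicate 3 was the highest array for 26 members, 16 of the large and 10 of the small subunit, with 51 of 56 above their own mean. For 15 members both held at once, among them Rpl5, Rpl9, Rpl24, Rps9 and Rps15. The same counts over all genes were not made. The genes of the top signal decile also lay low in Zbtb32-/- replicate 6, with a median deviation of -0.14. They lay high in wild-type replicate 3, at 0.18. Without Zbtb32-/- replicate 6, the members' median difference was 0.083 with 49 of 56 positive, against a median of 0.011 for all genes, and 12 of 56 members were higher at an unadjusted p under 0.05, against 4.84% of all genes. Without wild-type replicate 3 it was 0.076 with 47 positive, against 0.017 for all genes, and 8 of 56 members were higher at an unadjusted p under 0.05, against 6.36% of all genes. Both arrays stood out by the members' own values, so these counts are a description and no test. The share in the top signal decile, the closer background, was not computed without either array. With all 12 arrays, 84.6% of that decile had a positive difference, so all genes are a loose background for these counts. The adjusted p of every member stayed above 0.05 without either array, with lowest values of 0.728 and 0.522 in limma.

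**Figure D2:**
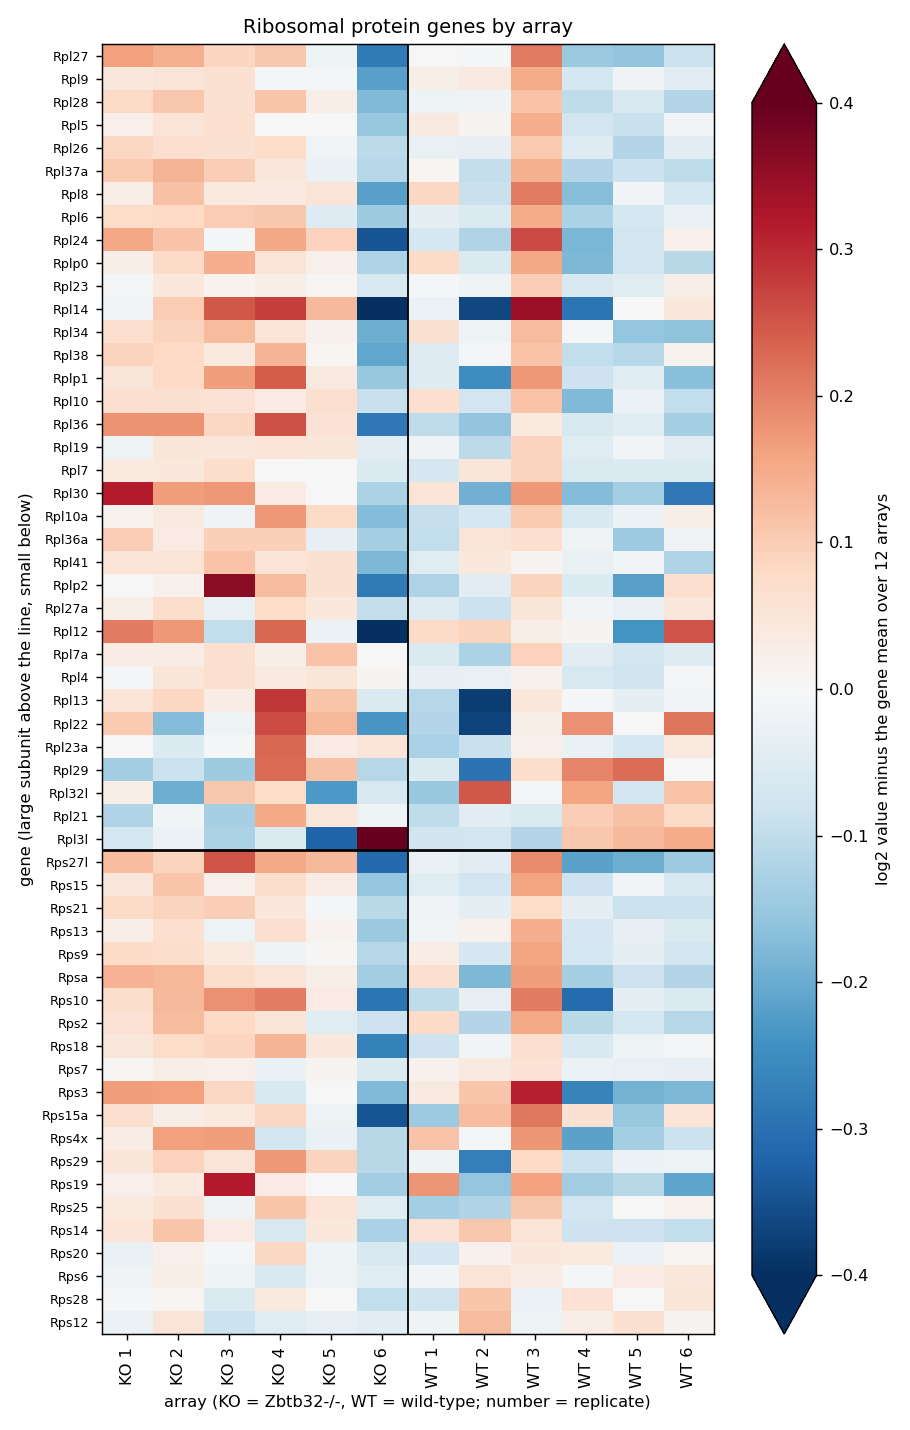
Deviation of each gene from its own mean over 12 arrays, on the log2 scale (red above, blue below, colours end at 0.4), for 35 large and 21 small subunit genes, with Zbtb32-/- arrays (KO) left and wild-type arrays (WT) right. Genes are ordered within a subunit by their median correlation with the other members. Zbtb32-/- replicate 6 is low for most genes and wild-type replicate 3 is high for most. Rpl3l, Rpl21, Rpl32l, Rpl29 and Rps12, whose median correlation with the other members is below 0, come last within their subunit.

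Some other measures also stood apart in these arrays. Zbtb32-/- replicate 6 had the highest mean of 4 lists of other-cell markers (neutrophil, monocyte, erythroid, and T and NK cell), 8.48, against 7.34 to 7.99 in the other Zbtb32-/- arrays and 6.73 to 8.11 in wild-type arrays. Its neutrophil mean was 11.98 and its plasma cell mean was 10.75, the lowest of the Zbtb32-/- arrays. The genes of the top signal decile also lay low in it, at -0.14. In wild-type replicate 3 the genes of the top decile lay high, at 0.18. Its other-cell marker mean of 7.88 lay within the range of the other wild-type arrays, while its erythroid mean of 8.03 was the highest of all arrays. The part of these measures in the ribosomal protein values was not tested.

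The ribosomal protein genes and the other genes of high signal parted in some arrays. In wild-type replicate 4, the top decile lay at -0.24 and the members at -0.065, with an other-cell marker mean of 8.11, a neutrophil mean of 10.65 and a plasma cell mean of 10.66. In wild-type replicate 1, the top decile lay at 0.074 and the members at -0.030. In wild-type replicate 6, the values were -0.15 for the top decile and -0.037 for the members.

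**Figure D3:**
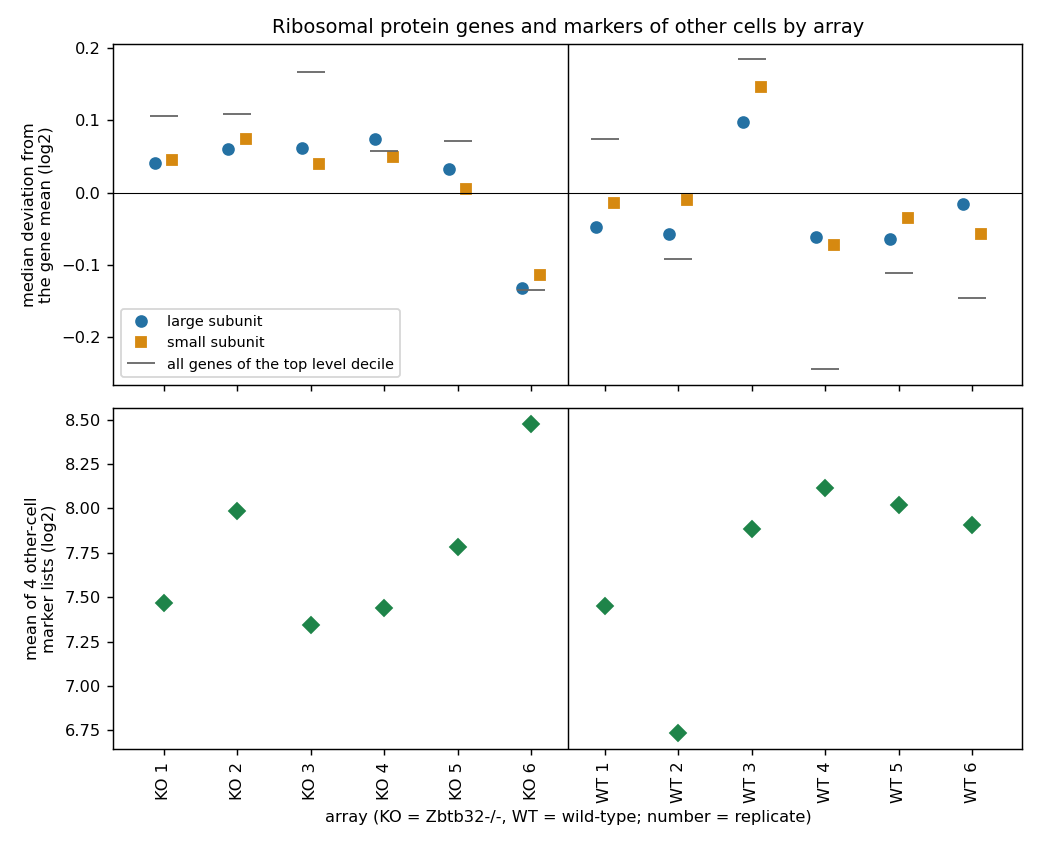
Top: median deviation from the gene mean (log2) per array for large subunit genes (circles), small subunit genes (squares) and all genes of the top signal decile (dashes). Bottom: mean log2 value of 4 marker lists of other cells. Zbtb32-/- arrays (KO) stand left, wild-type arrays (WT) right. Both subunits are lowest in Zbtb32-/- replicate 6, at -0.13 and -0.11, and highest in wild-type replicate 3, at 0.097 and 0.15.

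Large and small subunit genes kept together in each array. The large subunit median minus the small subunit median lay between -0.018 and 0.028 in Zbtb32-/- arrays and between -0.048 and 0.042 in wild-type arrays. Its mean was 0.0065 ± 0.021 in Zbtb32-/- and -0.017 ± 0.036 in wild-type arrays (SD, n = 6 each), and the groups overlapped. The largest gaps were those of wild-type replicates 2 and 3, where the small subunit genes lay higher, and of wild-type replicate 6, where the large subunit genes did.

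The replicate numbers 1 to 3 and 4 to 6 differ across many genes of this series, although the labels name no batch, and the ribosomal protein genes took part in this. Members were lower in replicates 4 to 6 in 44 of 56 cases and higher in 12. Of all 14993 genes 5814 were higher, and of the 1500 in the top signal decile 318 were. The members' median for replicates 4 to 6 minus replicates 1 to 3 was -0.083, against -0.063 for all genes and -0.18 for the top signal decile. All 6 arrays numbered 4 to 6 lay below all arrays numbered 1 to 3 in 4 members (Rpl5, Rpl9, Rps3 and Rps4x). These were 7.14% of the members, against 2.86% of all genes. The arrays numbered 4 to 6 all lay above in 0 members, against 1.03% of all genes. Rps3, whose protein lines the messenger's entry channel, read 12.17 to 12.44 in the 6 later-numbered arrays, against 12.47 to 12.75 in the others. Within replicates 1 to 3 the members' median genotype difference was 0.048, and within replicates 4 to 6 it was 0.045.

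The spread of ribosomal protein genes over the 12 arrays was small. Their median SD was 0.099 on the log2 scale (0.10 for the large and 0.090 for the small subunit), against 0.25 for all genes tested and 0.26 for the top signal decile. In 54 of 56 members the SD was below the median of all genes, Rpl12 and Rpl14 being the exceptions with 0.26 and 0.25. Where the mean was at least 12, the median SD was 0.089 for 41 members and 0.18 for the other 78 genes. These spreads were described without a test, and members of the set are not independent of each other. Across the 56 members, Pearson's r of mean and SD was -0.71 and Spearman's rho was -0.67, over genes that share the same 12 arrays.

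The tightest members were all of high signal. Rps7 had an SD of 0.033, with all Zbtb32-/- arrays between 13.32 and 13.40 and all wild-type arrays between 13.34 and 13.43. Rps6 followed with 0.036, and Rps20 came next with 0.045. The highest value of each array was at least 14.20, and whether the brightest probes were near the end of their range was not tested. The SD was larger within Zbtb32-/- than within wild-type arrays in 27 of 56 members (48.2%), against 30.1% of all genes and 24.6% of the top decile. The median SD within a genotype was 0.10 in Zbtb32-/- and 0.093 in wild-type arrays.

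**Figure D4:**
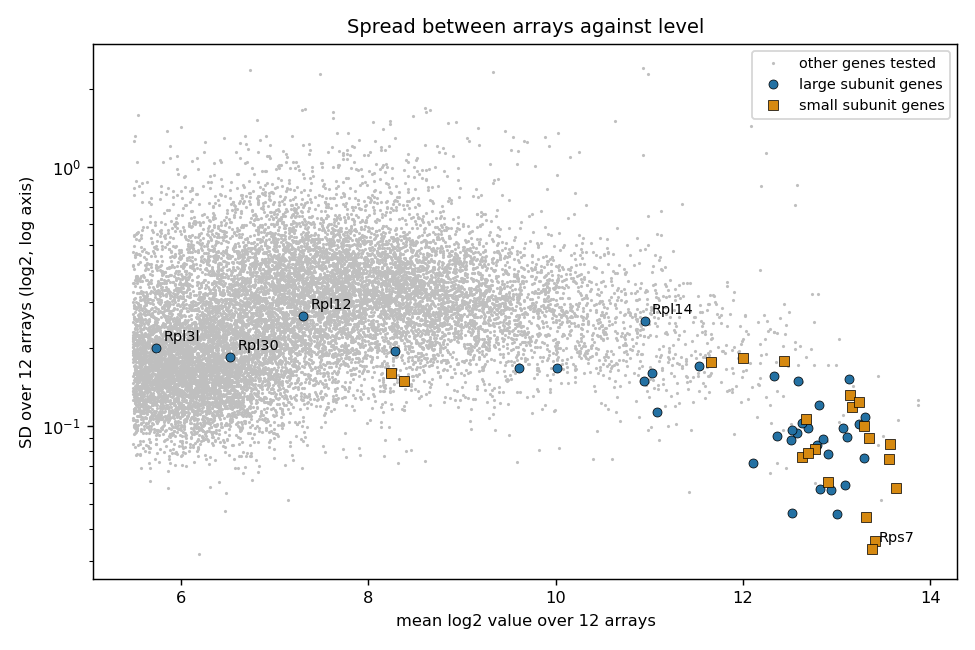
SD over the 12 arrays (log2 units, log axis) against the mean log2 value for 14993 genes tested. Large subunit genes are circles, small subunit genes squares, other genes grey. The members gather at the lower right, with means of at least 12 and a median SD of 0.089 for 41 of them, and Rps7 is the lowest member at 0.033.

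Most members moved together from array to array. After the mean of each genotype was taken off, the median correlation between 2 members over 12 arrays was 0.55, with 0.57 among large subunit pairs, 0.56 among small subunit pairs and 0.54 between subunits. For members in the top signal decile the median was 0.59, against 0.30 for all gene pairs of that decile. These pairs share arrays and normalization, and the values are a description. A median correlation with the other members of at least 0.5 was found for 40 of 56 members, led by Rpl27 (0.79), Rpl9 (0.78), Rps27l (0.77) and Rpl28 (0.77).

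In 5 members this median lay below 0. They were Rpl3l (-0.59), Rpl21 (-0.18), Rps12 (-0.14), Rpl32l (-0.040) and Rpl29 (-0.011). Rpl3l was highest in Zbtb32-/- replicate 6, the array in which 27 of the 56 members were lowest. Wild-type replicate 2, the array with the lowest other-cell marker mean, 6.73, was the highest array for 4 members, Rps6, Rps12, Rps28 and Rpl32l. It was the lowest array for 9 members, among them Rpl29, Rpl13, Rplp1 and Rps29.

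The letters at the annotated starts of these genes can be set beside this common movement. RefSeq promoter windows (GRCm38.p6, 250 bases before to 50 after the start) were matched for 47 of the 58 members, in 56 windows. A C at the start followed by at least 4 C or T, the letters of a TOP start, was found in 10 of the 56 windows (17.9%), against 2.51% of 32851 windows of all genes. The following stretches of 70 bases, 50 before and 20 after the start on the gene's strand, show 6 such starts, with the pyrimidine run in capitals.
Rps6, chr4:86857348-86857417, minus strand: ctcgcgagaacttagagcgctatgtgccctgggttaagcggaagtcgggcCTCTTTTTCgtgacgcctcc
Rps18, chr17:33955646-33955715, minus strand: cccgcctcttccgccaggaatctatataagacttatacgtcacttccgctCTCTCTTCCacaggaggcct
Rps10, chr17:27635225-27635294, minus strand: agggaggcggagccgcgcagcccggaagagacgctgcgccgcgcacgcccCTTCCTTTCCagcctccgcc
Rpl28, chr7:4792915-4792984, plus strand: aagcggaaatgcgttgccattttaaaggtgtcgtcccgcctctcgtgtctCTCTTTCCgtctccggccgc
Rpl38, chr11:114668530-114668599, plus strand: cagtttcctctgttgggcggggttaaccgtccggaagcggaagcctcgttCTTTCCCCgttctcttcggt
Rpl14, chr9:120571467-120571536, plus strand: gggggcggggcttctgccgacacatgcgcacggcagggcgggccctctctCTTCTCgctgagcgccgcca

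The annotated start decides this count, since a start placed a few bases away hides the run. Rpl27a and Rpl7a begin with T inside runs of C and T of 16 and 7 bases from the annotated start, and Rpl13 begins with a run of 4, also from a T. These 3 are shown with no capitals, beside 1 of the 2 windows each of the muscle paralog Rpl3l and the p53 target Rps27l. Neither of these windows has a run from the annotated start itself. In that of Rps27l the next base opens the letters cctct, so a start placed there would be counted.
Rpl27a, chr7:109519145-109519214, plus strand: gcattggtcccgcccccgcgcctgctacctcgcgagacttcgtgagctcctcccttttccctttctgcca
Rpl7a, chr2:26910757-26910826, plus strand: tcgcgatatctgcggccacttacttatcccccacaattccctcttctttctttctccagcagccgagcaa
Rpl13, chr8:123102300-123102369, plus strand: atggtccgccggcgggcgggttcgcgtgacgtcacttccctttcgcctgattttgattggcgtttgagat
Rpl3l, chr17:24727776-24727845, plus strand: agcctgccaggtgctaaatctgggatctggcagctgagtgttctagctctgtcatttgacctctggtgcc
Rps27l, chr9:66946036-66946105, plus strand: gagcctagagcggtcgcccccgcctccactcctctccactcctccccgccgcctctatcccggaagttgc

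Genes with such an annotated start had about the same median difference and a larger spread than those without, as described without a test. The 10 tested members with one (Rpl14, Rpl28, Rpl32l, Rpl38, Rplp2, Rps6, Rps10, Rps15a, Rps18 and Rps21) had a median genotype difference of 0.055, a median SD over the 12 arrays of 0.13 and a median correlation with the other members of 0.67. For the 35 tested members matched without one, these medians were 0.052, 0.090 and 0.63. Across the members the SD fell with the mean signal (Pearson's r -0.71), and the groups with and without such a start were not matched for signal. The part of signal in their spreads was not tested. The letters CCGGAAG, which contain the core bound by ETS factors, were found on either strand in 19 of the 56 windows (33.9%), against 8.86% of all windows, and TATAAA in 6 (10.7%), against 13.6%. CCGGAAG and TATAAA cannot overlap each other on either strand, while CTTCCGG, the first read on the other strand, can overlap a pyrimidine run. A match in a window is a description only.

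Several probe sets of a gene mostly gave the same answer. Of the 58 members, 38 had several single-gene probe sets, up to 14 for Rps12. Ribosomal protein genes have many near-identical processed copies in the genome, so probe sets given to 1 gene can read the same messenger or a copy, and their agreement is no independent evidence. The 155 further probe sets had a median difference of 0.045, with 116 positive, and their median correlation with the probe set used was 0.94. In 6 members the probe sets differed in sign.

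Rpl23, Rps15 and Rpl21 had the widest spans between probe sets. The pair of Rpl23 probe sets gave -0.15 and 0.0049 and correlated at only 0.20. The 3 of Rps15 ran from 0.040 to 0.18. Of the 9 probe sets of Rpl21, the one used had the lowest difference, -0.029, and the highest gave 0.10, so the mean of its probe sets turned the difference to 0.034.

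**Figure D5:**
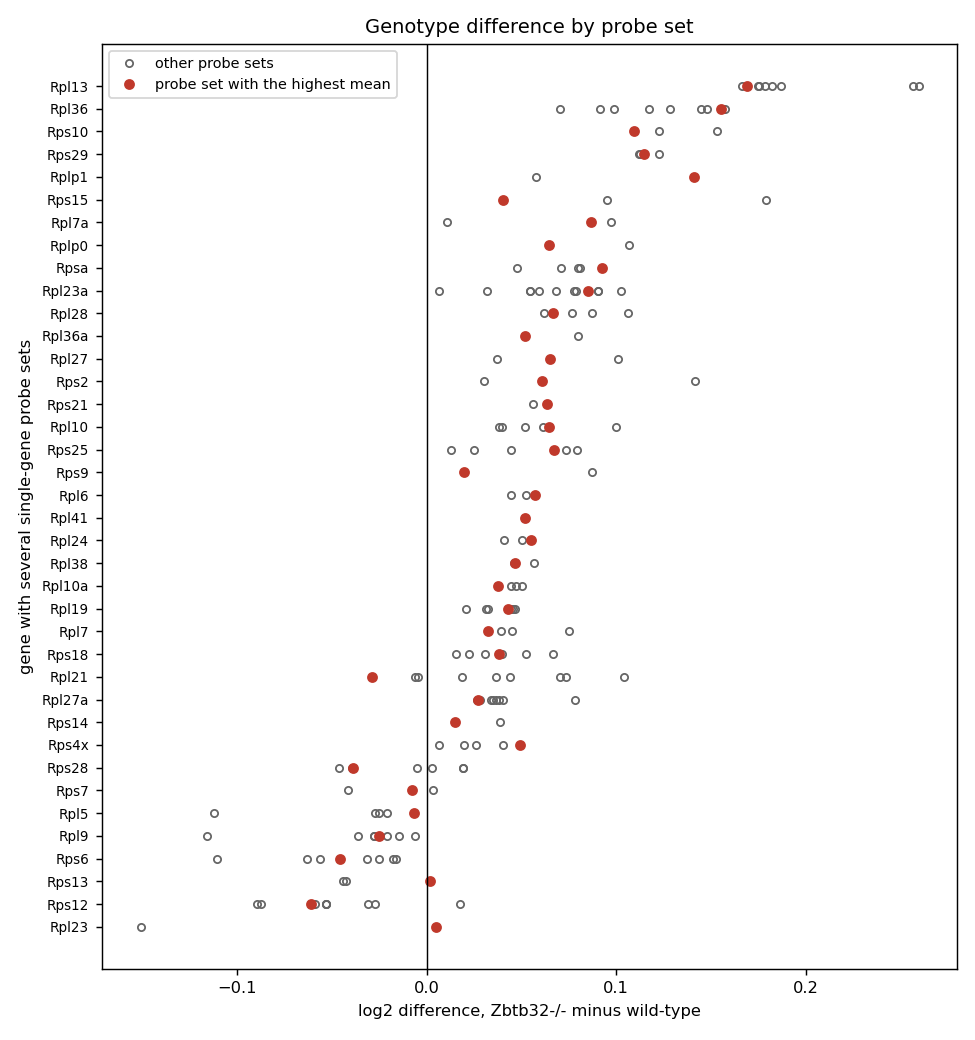
Genotype difference (Zbtb32-/- minus wild-type, log2) of every single-gene probe set for the 38 members that have several, ordered by the median. Filled points are the probe set with the highest mean, open points the others. The probe sets of Rpl13 all lie between 0.17 and 0.26, and the pair of Rpl23 lies furthest apart.

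Genes that work with the ribosomal proteins did not pass the test either. Of 3 further ribosomal protein genes or paralogs with other symbols, 0 were called; Fau, whose product is cut to release a small subunit protein, differed by 0.092 ± 0.080, and Rps3a1 by -0.068 ± 0.051 (SE). Among 23 genes of translation factors and other proteins with known TOP messengers, 0 were called, 20 had a positive difference and the median was 0.057. The top signal decile holds 18 of these 23, and 84.6% of its genes were positive, against 52.9% of all genes tested. The smallest p in that list belonged to Eif3m and Eif3l, subunits of initiation factor eIF3, with 0.29 ± 0.15 and 0.32 ± 0.22. Eef1a1, the factor that brings aminoacyl-tRNA to the ribosome, averaged 13.91 ± 0.11 in Zbtb32-/- and 13.83 ± 0.12 in wild-type arrays (SD), and Tpt1, another TOP messenger, averaged 13.47 ± 0.042 in Zbtb32-/- and 13.48 ± 0.064 in wild-type arrays.

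Among 18 translation factors without a TOP label, 0 were called, 16 were positive and the median was 0.085, led by Eif4h (0.21 ± 0.11) and the cap-binding factor Eif4e (0.29 ± 0.16). The top signal decile, with 84.6% of its genes positive, holds 9 of these 18. Of all genes tested, 52.9% were positive. Among 14 genes of mTORC1 control and the S6 kinases, 0 were called, 9 were positive and the median was 0.041. Its smallest p belonged to Mlst8, an mTOR partner, with 0.33 ± 0.22, and to Rheb, the GTPase that activates mTORC1, with 0.31 ± 0.23. Among 13 chaperones and assembly factors that serve ribosomal proteins, 0 were called, 9 were positive and the median was 0.14. Nob1, the endonuclease that finishes the small subunit's RNA, averaged 8.71 ± 0.41 in Zbtb32-/- and 8.22 ± 0.53 in wild-type arrays (SD), a difference of 0.49 ± 0.25 (SE; limma adjusted p = 0.933), and Bysl, another small subunit assembly factor, differed by 0.42 ± 0.23.

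The marker lists of cell types gave no call in any direction. For their counts of positive differences, the share was 52.9% over all genes tested and 84.6% over the top signal decile. The medians of the difference were 0.10 for plasma cell markers (9 of 12 positive; Jchain -0.11 ± 0.052 and Xbp1 0.16 ± 0.11 had the smallest p) and -0.10 for B cell markers (3 of 10; Bach2 -0.70 ± 0.28 and Pax5 -0.60 ± 0.44). They were 0.34 for neutrophil markers (13 of 14; Elane 0.81 ± 0.79 and Camp 0.68 ± 0.72) and -0.097 for monocyte and macrophage markers (1 of 10; Cd68 -0.51 ± 0.27 and Cd14 -0.43 ± 0.36). For erythroid markers the median was 0.28 (8 of 9; Car1 0.98 ± 0.58 and Ermap 0.36 ± 0.23), and for T and NK cell markers it was -0.15 (1 of 10; Il7r -1.04 ± 0.43 and Cd5 -0.19 ± 0.085). The part of such cells in the ribosomal protein values was not tested.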

How the data were processed

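Plasma cell RNA was amplified with the WT Pico kit, labelled with biotin and hybridised to 1 array per sample, per the labels' protocols. Per the submitters' processing notes, the authors ran RMA and Affymetrix Expression Console, and the deposited table holds 1 log2 value per probe set and array. Program versions are not given in the sources used here. This procedure makes the arrays' distributions alike and compresses low values. Gene names came from the platform annotation, and a check of their Entrez IDs against RefSeq found 0 symbols that differed. For each gene, the probe set naming that gene alone and having the highest 12-array mean was used, and genes at or below the 25th percentile were left out. limma 3.58.1 in R 4.3.3 (lmFit, eBayes with trend) tested genotype across 14993 genes, with Benjamini-Hochberg adjustment at 0.05 and 95% intervals, and was tested on simulated data. Tables and plots used Python 3.11.15, pandas 2.3.3 and matplotlib 3.10.9. Members and lists were chosen with earlier results of these data known, and the division into replicates 1 to 3 and 4 to 6 comes from them. The genes named by rule were Zbtb32, the members with the smallest p in each direction, the largest and smallest SD, the largest residual SD and the most differing probe sets, paralogs with their parents, stalk proteins, members below the filter and the 2 genes of smallest p in each other list. Further members were named after their values were seen (Rps3, Rpl9 and Rpl29, for example). Alternatives were other scalings, filters, probe set and variance settings, a replicate block and arrays left out.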

Additional observations from a re-analysis of the deposited data

Results flagged for a closer look

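Within the 6 arrays of a genotype, an array was singled out when its distance to the nearest other array divided by the group's range exceeded the 95% critical value of Dixon's test, which chance passes in about 1 in 20 groups. This held 29 times in 124 groups, 20 of them for Zbtb32-/- replicate 6 and 6 for wild-type replicate 3. Of the 29, 23 fell among the 116 groups of single members, and the rest were medians over these same members. Members move together over the same arrays, so the groups are not independent and the count is a description and no test. The same share over all genes is not given here.

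Zbtb32-/- replicate 6 met this as the lowest of its group for 16 members. Its log2 values were 13.02 for Rpl10, 6.60 for Rpl12, 11.18 for Rpl24, 12.51 for Rpl28, 10.88 for Rpl34, 10.74 for Rpl36, 12.42 for Rpl38, 12.61 for Rpl41, 12.76 for Rpl5, 12.60 for Rpl8 and 12.63 for Rpl9. In the small subunit they were 11.36 for Rps10, 13.19 for Rps15, 8.03 for Rps15a, 12.40 for Rps18 and 11.69 for Rps27l. The same array was the highest of its group for the muscle paralog Rpl3l, at 6.22. Its median deviation was -0.13 over all members, -0.13 over the large and -0.11 over the small subunit.

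Wild-type replicate 3 was the highest of its group for Rpl6 at 13.22, Rpl7a at 12.20 and Rps15 at 13.50. Its median deviation was 0.10 over all members, 0.097 over the large and 0.15 over the small subunit.

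In 3 further genes another array stood apart. Rpl13 was lowest in wild-type replicate 2 at 11.95, Rpl23a was highest in Zbtb32-/- replicate 4 at 12.59, and Rpl39l, below the filter, was highest in Zbtb32-/- replicate 3 at 6.91.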

How the results depend on the processing

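The precision is limited by 6 arrays per genotype, by probe sets that can read near-identical copies, by 23 members not analysed and by normalization, which hides any change in total RNA. Genes called by genotype stayed at 0 in all alternatives run except replicates 4 to 6 alone, which gave 1 gene, no ribosomal protein gene. The members called stayed at 0 throughout, and the members' median difference stayed positive, from 0.019 under renewed quantile normalization to 0.077 with centring by the median, and from 0.035 to 0.083 when each array was left out in turn. It was 0.061 with array weights (48 of 56 positive) and 0.039 without wild-type replicates 2 and 6. The replicate numbers did not pair the samples consistently. Same-numbered arrays of the 2 genotypes correlated at 0.019 to 0.47 after group means were taken off, with numbers 2 and 4 under 0.1. The wild-type array closest to a Zbtb32-/- array had the same number for numbers 1 and 5, and another number for 2, 3, 4 and 6. With the replicate block, 0 genes were called, the members' median was 0.052 and the smallest adjusted p of a member was 0.792. Differences near 0 turned their sign in 7 named genes. Renewed quantile normalization gave -0.026 for Rpl23 and 0.0038 for Rpl3l. Centring gave 0.018 for Rpl5, 0.020 for Rps20 and 0.017 for Rps7. Averaging the probe sets of each gene gave 0.034 for Rpl21 and -0.073 for Rpl23. Array weights gave 0.037 for Rpl12, 0.0061 for Rpl5 and 0.0036 for Rps20. Replicates 1 to 3 alone gave 0.032 for Rpl12, -0.0064 for Rpl23 and 0.017 for Rpl3l, and replicates 4 to 6 alone gave 0.0071 for Rpl5 and 0.0052 for Rps7. Without wild-type replicates 2 and 6, Rps20 was at 0.00016. Leaving out each array in turn gave -0.13 to 0.063 for Rpl12, -0.0068 to 0.025 for Rpl23, -0.14 to 0.023 for Rpl3l, -0.025 to 0.023 for Rpl5, -0.022 to 0.0076 for Rps20 and -0.015 to 0.0033 for Rps7. The cause of these changes was not tested.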
